A study of Mus musculus with 34 samples.

Results

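Skeletal muscle that has lost its nerve changes the expression of a large part of its genes, and most accounts of an intervention in denervated muscle ask which of those changes it prevents. The 93 rows described here are of another kind. Their level was about the same in denervated and control muscle, yet it differed, in the same direction, in denervated muscle of mice given the class IIa histone deacetylase inhibitor NVS-HD1 and in denervated muscle of mice that had lost Hdac4. Of the 93 rows, 79 were higher and 14 were lower under both interventions.

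Class IIa histone deacetylases are transcriptional co-repressors that bind MEF2 and other factors and shuttle between cytoplasm and nucleus. HDAC4 is the member best known in denervated muscle, where it accumulates and links the loss of nerve activity to genes of the neuromuscular junction, through repression of Dach2 and induction of myogenin. An inhibitor of this class and a deletion of Hdac4 therefore act on one pathway from different sides. The inhibitor can also reach the other class IIa enzymes, and the deletion also removes functions of the protein that do not need its catalytic domain.

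All libraries came from gastrocnemius muscle of female mice that were 6 months old at unilateral sciatic neurectomy. WT_VEH_CON are 8 contralateral, innervated legs of vehicle-treated wild-type mice, and WT_VEH_DEN are 7 denervated legs of vehicle-treated wild-type mice. WT_NVS-HD1_DEN are 10 denervated legs of wild-type mice dosed with NVS-HD1 by mouth at 10 mg/kg, 2 times a day for 2 weeks from the day of surgery. iRKO_VEH_DEN are 9 denervated legs of vehicle-treated mice with an inducible whole-body knockout of Hdac4. In these mice Cre-ERT2 is expressed from the ROSA26 locus and removes the floxed exon 5 after tamoxifen, given at 4 months of age for 7 days at 40 mg/kg, 6 weeks before surgery. The deletion is thus in all tissues and not in muscle fibres alone, and the labels do not say whether wild-type mice also received tamoxifen. Innervated legs of mice on NVS-HD1 or without Hdac4 were not analysed here, so a level set by the intervention in any muscle cannot be told apart from one that needs denervation. Which legs came from the same mouse is not labelled, so the p-values below cover no more than the spread among the deposited libraries, which may be technical in part.

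Members were chosen by measured values of the same libraries. The rule took the group means of log2(TPM + 1), where TPM is a length-scaled share of the transcripts in a library. A row needed at least 1 TPM in at least 7 libraries, which 13108 of 23737 rows met, and a mean under 1000 TPM in control muscle. Its denervated and control means in vehicle-treated wild-type muscle had to lie within 0.25 of each other on the log2 scale, which, with the control limit, left 4529 rows. Both interventions had to differ from WT_VEH_DEN in the same direction by at least 0.5. Of the 4529 rows, 93 met this, 62 passed 0.5 under NVS-HD1 alone, 48 passed it in the knockout alone, and 0 passed it under both in opposite directions. Both differences are taken against the same 7 WT_VEH_DEN libraries.

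No row can be read as the gene whose symbol stands beside it. Of 7 symbols of abundant skeletal muscle genes, 6 stood beside rows with a mean under 10 TPM, among them Acta1, the skeletal actin, at 0 TPM, while the highest row mean of the table was 51113 TPM. Rows are therefore named by their position, counted from 1 below the header, and the tissue, the deletion of Hdac4 and the roles of the members cannot be checked from symbols. For the same reason no sequence is shown. In muscle as a whole, fewer cells of a type and less RNA per cell cannot be told apart. Between 11607 and 12933 rows reached 1 TPM in a library, and the depth behind the TPM is unknown.

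Across the 79 higher rows the median difference from WT_VEH_DEN was 0.70 on the log2(TPM + 1) scale with NVS-HD1, with a range of 0.52 to 2.11, and 0.68 in the knockout, with a range of 0.50 to 2.38. Across the 14 lower rows it was -0.55 with NVS-HD1 (-0.84 to -0.51) and -0.65 in the knockout (-0.95 to -0.50). Over all 13108 rows the medians were 0.03 and -0.03. In TPM, the higher rows stood at a median of 1.82 times WT_VEH_DEN with NVS-HD1 and 1.84 times in the knockout, and 23 of them were at least 2-fold higher under both interventions. On the log2(TPM + 1) scale of the rule, 5 of the higher rows differed by at least 1 under both. None of the lower rows was 2-fold lower in TPM under both (0 of 14). Of the 62 rows past 0.5 under NVS-HD1 and not in the knockout, 52 were higher and 10 lower, and of the 48 past it in the knockout alone, 30 were higher and 18 lower; these counts use the same WT_VEH_DEN libraries.

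**Figure D1:**
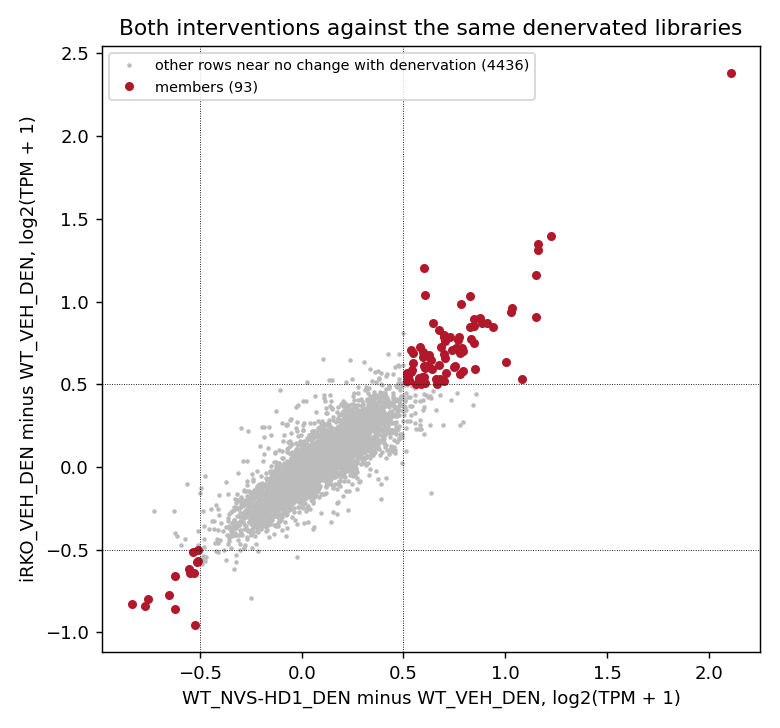
Each point is a row whose denervated and control means differed by less than 0.25, with its difference from WT_VEH_DEN under NVS-HD1 on the x axis and in the knockout on the y axis, both in log2(TPM + 1), and dotted lines at 0.5. The 93 members (red) fill the upper right and lower left corners, row 5166 lies far from the rest at 2.11 and 2.38, and the other 2 corners are empty; both axes share the WT_VEH_DEN libraries.

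The rule used these differences, so they are a description and carry no test. For orientation, the fit over all rows called 85 of the 93 members for NVS-HD1 against WT_VEH_DEN (39.7% of all rows) and 88 for the knockout against WT_VEH_DEN (41.2%), and called 3 for denervation (61.0% of all rows; limma, adjusted p under 0.05). Libraries of WT_NVS-HD1_DEN and WT_VEH_DEN did not overlap in 28 members (11.8% of all rows), and those of iRKO_VEH_DEN and WT_VEH_DEN in 24 (12.5%). In 10 members all 19 libraries with an intervention lay beyond all 15 control and WT_VEH_DEN libraries. That complete separation was rare in the table, with 28 of 13108 rows (0.214%), but the rule selects for it.

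Members covered a wide range of abundance, with means over all libraries of 0.691 to 611 TPM. Their median over all libraries was 9.31 TPM, against 12.8 TPM for all rows tested, and 18 members had a mean under 2 TPM, 45 between 2 and 20, 22 between 20 and 100 and 8 above 100. The higher rows had a median of 7.88 TPM and the lower rows of 20.2 TPM. Within a group, members varied somewhat more than most rows: the median SD of log2(TPM + 1) was 0.28 in WT_VEH_CON, 0.27 in WT_VEH_DEN, 0.28 in WT_NVS-HD1_DEN and 0.33 in iRKO_VEH_DEN, against 0.22, 0.20, 0.21 and 0.24 over all rows tested. No member duplicated another (0 identical pairs).

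**Figure D2:**
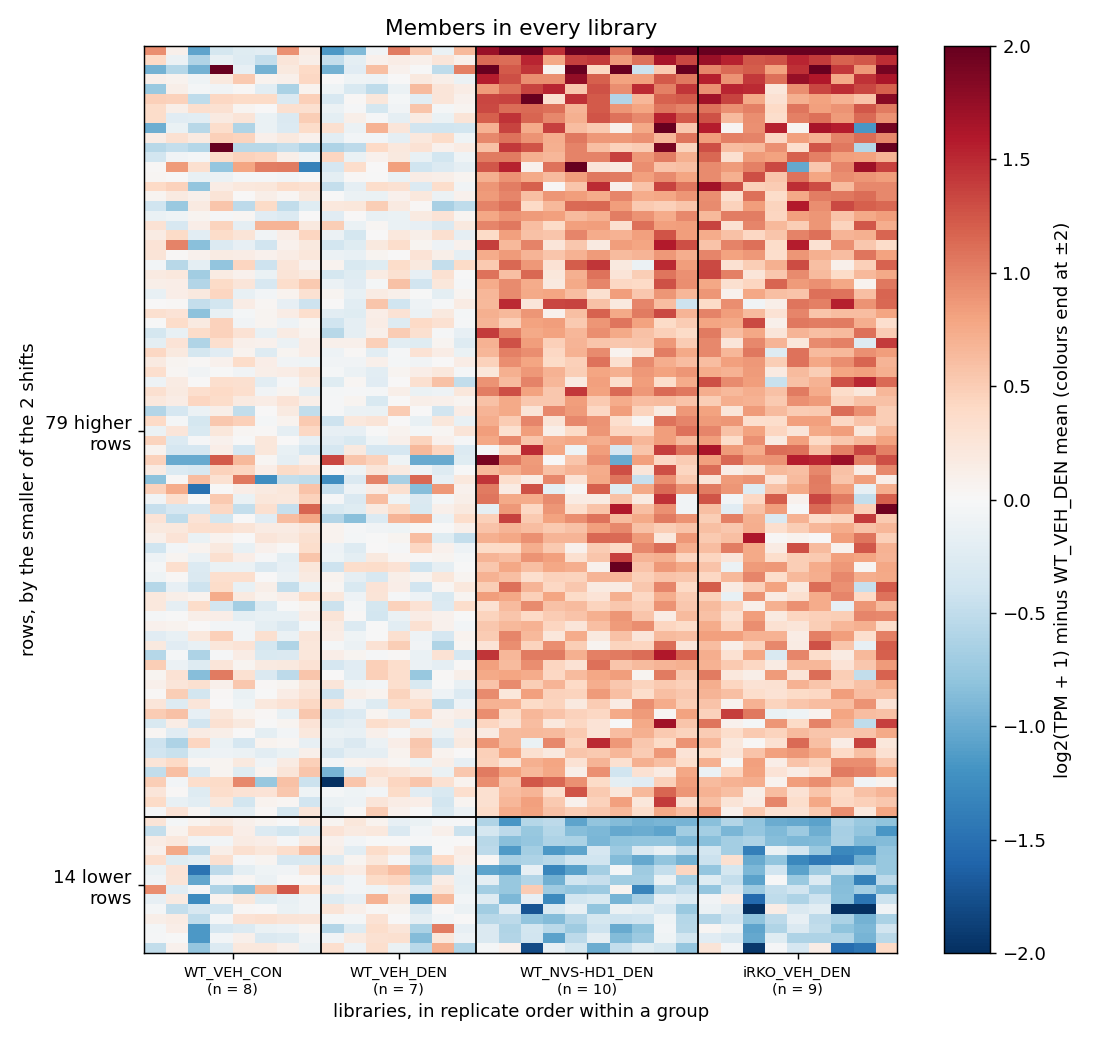
Colour shows log2(TPM + 1) minus the WT_VEH_DEN mean of the row for the 93 members (rows of the picture, ordered by the smaller of their differences under the 2 interventions) in all 34 libraries (columns, by group). The 79 higher rows turn red and the 14 lower rows blue in the WT_NVS-HD1_DEN and iRKO_VEH_DEN columns, and the lower rows are also blue in single libraries of the other 2 groups.

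Row 5166 was the most abundant member and the one with the largest difference. It ranged from 90.0 TPM through a median of 182 to 360 TPM in WT_VEH_CON, and from 84.3 through 179 to 387 TPM in WT_VEH_DEN. With NVS-HD1 it ranged from 402 through 885 to 1364 TPM, and in the knockout from 760 through 996 to 1274 TPM. Every library with an intervention was thus above every library without one. The mean was 4.06 times that of WT_VEH_DEN with NVS-HD1 and 4.65 times in the knockout, with log2 differences of 2.11 (SE 0.27) and 2.38 (SE 0.28).

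Row 12478 had the same pattern at lower abundance and with less spread. Its values were 36.3, 50.1 and 73.4 TPM (lowest, median, highest) in WT_VEH_CON and 39.5, 59.5 and 65.3 TPM in WT_VEH_DEN. They were 95.5, 132 and 175 TPM with NVS-HD1, and 126, 148 and 185 TPM in the knockout. The groups with and without an intervention did not overlap, and the mean was 2.37 times that of WT_VEH_DEN with NVS-HD1 and 2.65 times in the knockout.

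Row 5623 was at 82.8, 111 and 184 TPM (lowest, median, highest) in WT_VEH_DEN and 70.1, 114 and 129 TPM in WT_VEH_CON. It reached 173, 272 and 343 TPM with NVS-HD1 and 138, 301 and 342 TPM in the knockout. Means were 2.21 and 2.25 times that of WT_VEH_DEN. The groups overlapped at their edges, since WT_VEH_DEN replicate 5 lay above WT_NVS-HD1_DEN replicate 5, and iRKO_VEH_DEN replicate 4 lay inside the range of WT_VEH_DEN.

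The remaining named higher rows differed in how cleanly the groups parted. Row 5662 stood at 19.4 ± 4.33 TPM (SD, n = 7) in WT_VEH_DEN, 40.3 ± 5.55 TPM (SD, n = 10) with NVS-HD1 and 37.9 ± 5.88 TPM (SD, n = 9) in the knockout. Row 11242 had 5.95 ± 0.874 TPM (SD, n = 7) in WT_VEH_DEN and 14.6 ± 2.56 TPM (SD, n = 10) and 12.2 ± 2.38 TPM (SD, n = 9) under the interventions. In row 11242 neither intervention overlapped WT_VEH_DEN, and in row 5662 only the knockout did, in iRKO_VEH_DEN replicate 4, which lay below WT_VEH_DEN replicate 5.

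Row 7061 was widely spread under both interventions, at 32.8 to 226 TPM with NVS-HD1 and 61.7 to 179 TPM in the knockout, against 39.6 to 58.8 TPM in WT_VEH_DEN. WT_NVS-HD1_DEN replicate 7, at 32.8 TPM, was below every WT_VEH_DEN library.

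Rows 1433 and 2983 were both low but differed in spread. Row 1433 was at 0.0909, 0.189 and 0.352 TPM (lowest, median, highest) in WT_VEH_DEN and 0.114, 0.274 and 0.702 TPM in WT_VEH_CON. It was at 1.07, 1.60 and 3.0 TPM with NVS-HD1 and 1.01, 2.22 and 2.97 TPM in the knockout. No library with an intervention overlapped one without, and the means in TPM were 8.99 and 11.0 times that of WT_VEH_DEN, although the log2(TPM + 1) differences were only 1.16 and 1.35. Row 2983 was at 0 to 2.90 TPM in WT_VEH_DEN, 0.432 to 7.56 TPM with NVS-HD1 and 2.37 to 6.88 TPM in the knockout. It also had a single control library, WT_VEH_CON replicate 4, at 20.5 TPM, above every other library, with the other controls at 0 to 1.55 TPM.

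The higher rows 10217, 18558, 10690, 3177 and 18174, were picked out after their values were seen because no library with an intervention overlapped one without. Row 10217 had 14.3 to 18.3 TPM in WT_VEH_DEN and 14.8 to 17.0 TPM in control muscle, against 26.1 to 35.2 TPM with NVS-HD1 and 24.8 to 41.9 TPM in the knockout. Row 10690 had 76.8 to 109 TPM in WT_VEH_DEN, 140 to 185 TPM with NVS-HD1 and 122 to 184 TPM in the knockout. Rows 18558, 3177 and 18174 stood at 1.80, 1.66 and 1.56 times the WT_VEH_DEN mean with NVS-HD1 and at 1.85, 1.74 and 1.57 times in the knockout. Small but tightly held differences thus belonged to the completely separated set.

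Among the 14 lower rows, row 19128 was the most tightly held. It ranged from 79.3 to 96.6 TPM in WT_VEH_CON and from 80.2 to 88.5 TPM in WT_VEH_DEN. With NVS-HD1 it ranged from 43.9 to 56.7 TPM and in the knockout from 44.4 to 54.2 TPM. The WT_VEH_DEN mean was 1.70 times that with NVS-HD1 and 1.75 times that of the knockout, and the gap between the groups was wider than the range of any of them.

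Row 5007 also separated completely, with 24.1, 26.7 and 32.1 TPM (lowest, median, highest) in WT_VEH_DEN, 11.7, 14.2 and 18.7 TPM with NVS-HD1 and 12.4, 15.1 and 17.8 TPM in the knockout. Its WT_VEH_DEN mean was 1.83 times that of either intervention. Row 16808 stood at 66.2, 96.0 and 108 TPM in WT_VEH_DEN, 42.4, 50.8 and 69.4 TPM with NVS-HD1 and 39.4, 51.1 and 56.2 TPM in the knockout. In that row a single library, WT_NVS-HD1_DEN replicate 1, reached into the range of WT_VEH_DEN.

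The other lower rows named were less uniform. Row 1138 had 8.33 ± 1.98 TPM (SD, n = 7) in WT_VEH_DEN, 4.96 ± 1.45 TPM (SD, n = 10) with NVS-HD1 and 4.56 ± 1.68 TPM (SD, n = 9) in the knockout, and row 11661 had 24.7 ± 6.08, 16.3 ± 3.25 and 16.0 ± 4.81 TPM in the same order. Row 16813 had 21.2 ± 4.41 TPM (SD, n = 7) in WT_VEH_DEN and 11.9 ± 5.94 TPM (SD, n = 9) in the knockout, where replicate 2, at 26.2 TPM, was above all but 1 of the WT_VEH_DEN libraries. Rows 654 and 7964 were low, at 3.41 ± 1.47 and 1.81 ± 0.335 TPM (SD, n = 7) in WT_VEH_DEN and at 1.68 ± 0.448 and 0.805 ± 0.278 TPM (SD, n = 9) in the knockout.

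**Figure D3:**
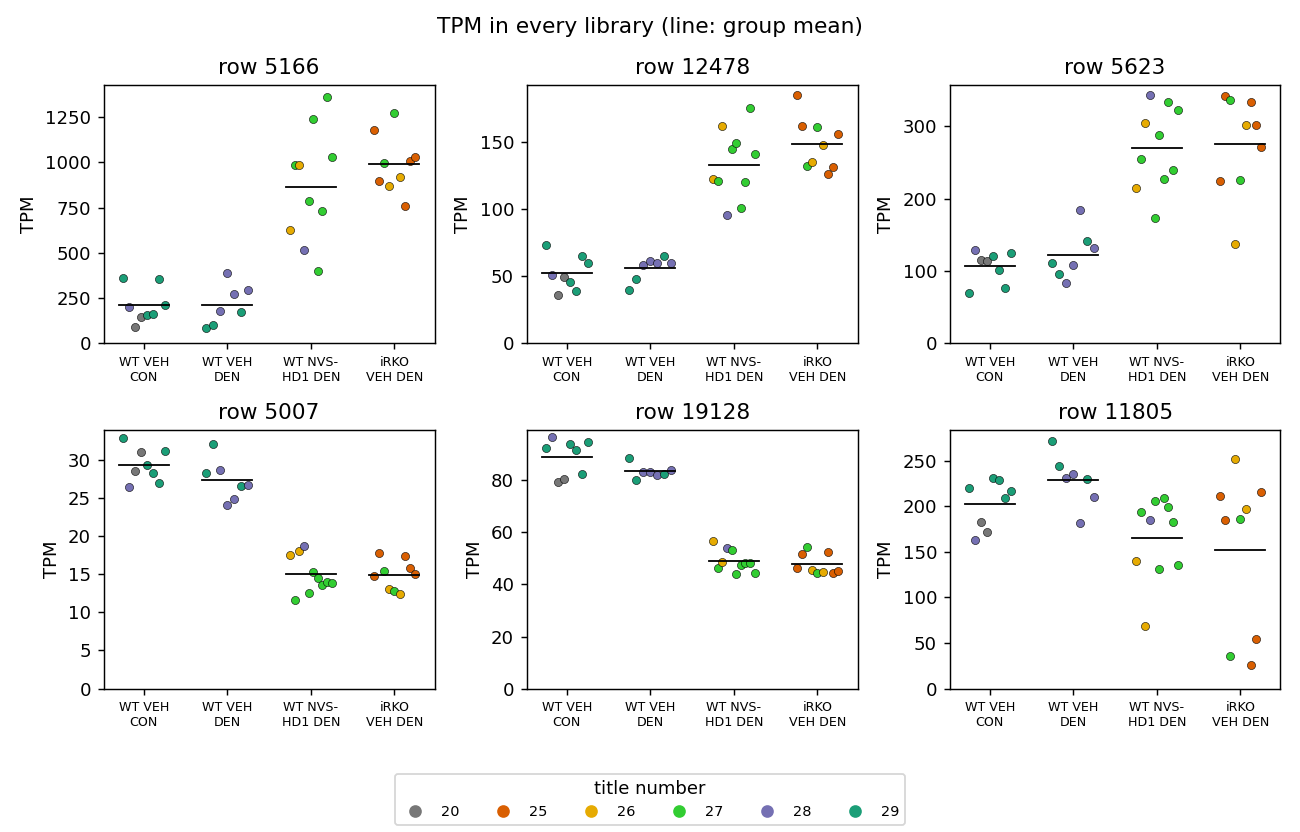
TPM of 6 members in every library, with axes from 0, a line at each group mean and colours for the number in the library title. Rows 5166, 12478 and 5623 are higher and rows 5007 and 19128 lower in both intervention groups than in both wild-type vehicle groups; row 11805 is low in 3 knockout libraries (26.2 to 54.9 TPM) and in 1 NVS-HD1 library (68.2 TPM), and elsewhere lies at 132 TPM or more.

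At the threshold the choice was fine-grained. The smaller of the 2 differences was under 0.55 in 32 of 93 members. Just inside lay rows 9172, 11633 and 8147, with smaller differences of 0.503, 0.501 and 0.501 in size, and just outside lay rows 6085, 6960 and 5925, at 0.499, 0.499 and 0.498. The difference between denervated and control muscle was over 0.2 in either direction in 16 members.

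NVS-HD1 and the knockout were also compared with each other. Their difference is that of the 2 values the rule used, and the rule asked both for the same sign and a minimum size, so the members were in part chosen for agreement and the counts here are a description. The comparison called 0 of 93 members (limma, adjusted p under 0.05; 0.0763% of all rows), and 4 members had an unadjusted p under 0.05, against 8.39% of all rows. The 95% interval of the difference lay within 0.5 on the log2 scale either way in 66 of 93 members, a lower share than the 83.5% of all rows. For the other 27 members a difference of that size is within the interval. NVS-HD1 had the larger difference from WT_VEH_DEN in 43 members and the knockout in the other 50.

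The 4 members with an unadjusted p under 0.05 went in both directions and, apart from row 11242, are named because of these values. Row 6791 had 16.2 ± 3.03 TPM (SD, n = 10) with NVS-HD1 and 12.3 ± 2.14 TPM (SD, n = 9) in the knockout, a log2 difference of 0.37 with a 95% interval of 0.16 to 0.57 (limma, adjusted p = 0.188). Row 16453 had 2.78 ± 0.763 and 1.65 ± 0.791 TPM, a log2 difference of 0.55 with an interval of 0.25 to 0.85 (limma, adjusted p = 0.188). Row 11242 was nearer, at 0.24 with an interval of 0.01 to 0.48 (limma, adjusted p = 0.569). In row 10689 the knockout was the higher, with 1.64 ± 0.597 TPM (SD, n = 9) against 1.08 ± 0.869 TPM (SD, n = 10), a log2 difference of -0.43 and an interval of -0.83 to -0.04 (limma, adjusted p = 0.522). For row 5166 the difference between the interventions was -0.27 with an interval of -0.79 to 0.25 (limma, adjusted p = 0.809).

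To see how evenly the libraries of a group shared the pattern, the differences from the WT_VEH_DEN mean were averaged over members in each library, with the sign turned for lower rows. For all members this mean shift was 0.73 ± 0.077 with NVS-HD1 (SD, n = 10) and 0.74 ± 0.12 in the knockout (SD, n = 9), on the log2(TPM + 1) scale. By library it ran from 0.63 to 0.85 under NVS-HD1 and from 0.50 to 0.87 under the knockout. In control muscle it ran from -0.05 to 0.22, and in WT_VEH_DEN from -0.15 to 0.13. Each of the 19 libraries with an intervention was thus above each of the 15 without, a gap that the choice of members favours. Of the 93 members, 85 to 93 differed in the chosen direction in a given NVS-HD1 library, and 83 to 92 in a given knockout library.

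**Figure D4:**
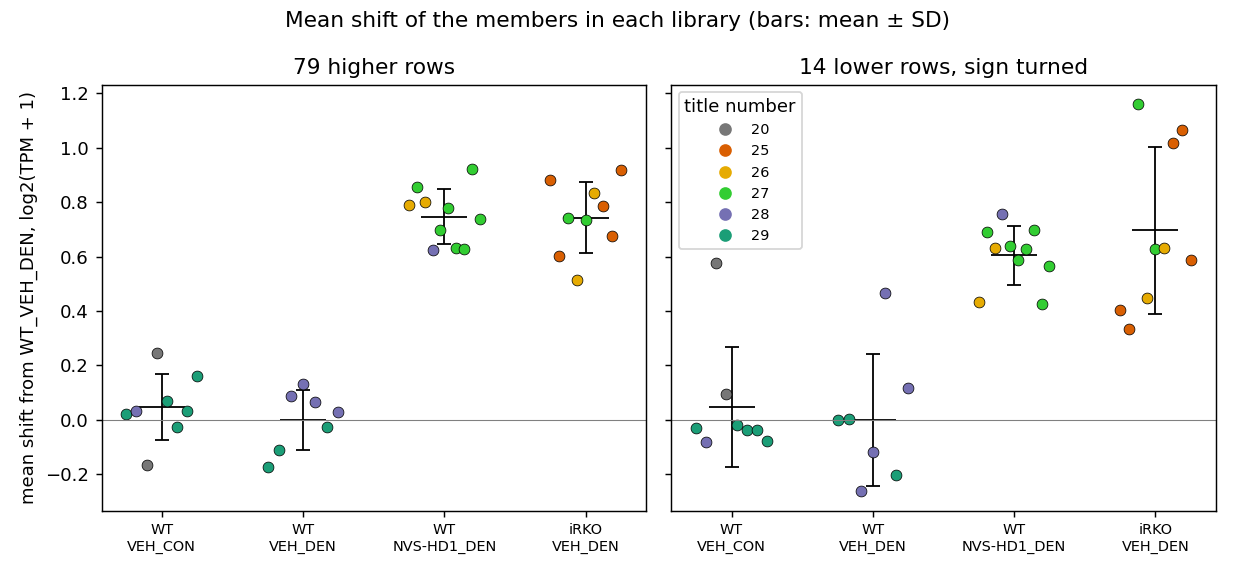
Mean shift of the 79 higher rows (left) and of the 14 lower rows with the sign turned (right) in each library, in log2(TPM + 1) from the WT_VEH_DEN mean; points are libraries coloured by title number, and bars give the mean and SD of a group. Higher rows leave a gap between libraries without (at most 0.24) and with an intervention (at least 0.51), whereas for lower rows WT_VEH_CON replicate 3 (0.58) and WT_VEH_DEN replicate 5 (0.47) reach into the range of the intervention groups.

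The lower rows differed between libraries of a group along with a feature of those libraries. The share of all TPM taken by the table's 20 top rows was 40.9% to 41.8% in iRKO_VEH_DEN replicates 3, 7 and 8, against 32.4% to 35.9% in the other 6 knockout libraries. The mean shift of the lower rows was 1.02 to 1.16 in those 3 libraries and 0.33 to 0.63 in the other 6. In the higher rows it was 0.67 to 0.79 and 0.51 to 0.92. WT_VEH_CON replicate 3 and WT_VEH_DEN replicate 5, which had the largest such share of their groups (44.1% and 33.7%), also had the largest shift of the lower rows, 0.58 and 0.47, where the other libraries of their groups lay at or below 0.10 and 0.12. The higher rows were at their lowest of the group in WT_VEH_CON replicate 3, at -0.16 against -0.03 to 0.24, and inside the range of their group in WT_VEH_DEN replicate 5, at 0.06. After median-of-ratios scaling, which takes out a common factor per library, these 5 libraries still stood highest of their groups for the lower rows, with 0.81 to 0.98 in the 3 knockout libraries, 0.11 in the control library and 0.30 in the denervated one. On that scale the 3 knockout libraries were also highest for the higher rows, at 0.90 to 0.94 against 0.48 to 0.89 in the other 6. So was WT_VEH_DEN replicate 5, at 0.20 against at most 0.04. WT_VEH_CON replicate 3, at 0.21, lay inside the 0.15 to 0.30 of its group. Standing apart after scaling was thus not particular to the lower rows in the knockout and denervated libraries.

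Over all rows tested, the 3 knockout libraries did not overlap the other 6 in 35.3% of rows. Among members this held for 15 of 93: 8 of the 79 higher rows and 7 of the 14 lower rows. The 3 libraries were the low ones in all 7 of these lower rows and in 1 of the 8 higher rows. Over all rows tested they were the low ones in 4226 of the 4632 rows without overlap, so this direction is not particular to the lower rows. Row 11805, the most abundant lower row, had 26.2 to 54.9 TPM in the 3 libraries and 185 to 251 TPM in the other 6, which is within the 182 to 271 TPM of WT_VEH_DEN. Row 11633 had 8.31 to 12.0 TPM in the 3 and 27.1 to 45.7 TPM in the other 6, against 22.3 to 56.6 TPM in WT_VEH_DEN. Without the 3 libraries, the difference between knockout and WT_VEH_DEN was -0.14 in row 11805 and 0.066 in row 11633.

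A part of the lower rows did not depend on those libraries. Rows 5007, 16808 and 19128 differed from WT_VEH_DEN by -0.71, -0.74 and -0.72 in the 3 libraries and by -0.89, -0.89 and -0.84 in the other 6. In the 6 other knockout libraries, 7 of the 14 lower rows and 67 of the 79 higher rows differed from WT_VEH_DEN by at least 0.5 in the chosen direction. These 6 libraries and WT_VEH_DEN took part in the choice at the same threshold, so the counts are a description. They have no share over all rows beside them. Whether library composition has a part in the lower rows was not tested.

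The library titles carry a number whose meaning the labels do not give, and it runs nearly parallel to the groups. WT_VEH_CON libraries have numbers 20, 28 and 29 and WT_VEH_DEN libraries 28 and 29, while iRKO_VEH_DEN libraries have 25, 26 and 27 and WT_NVS-HD1_DEN libraries 26 and 27, apart from replicate 4, which has 28. A pattern in which both interventions differ from both vehicle groups of wild-type mice is therefore also a difference between title numbers. For the knockout, number and genotype cannot be told apart. For NVS-HD1, replicate 4 shares number 28 with 4 WT_VEH_DEN libraries, although a second number in its title is 97, where theirs is 99 and that of the other NVS-HD1 libraries is 95. A letter in the titles, also of unknown meaning, runs nearly parallel to the groups too. It is B in WT_VEH_CON apart from replicate 2 (C), and C in WT_VEH_DEN. In WT_NVS-HD1_DEN it is D apart from replicate 4 (C), and in iRKO_VEH_DEN it is E apart from replicates 3 and 5 (D). Denervated and control libraries thus differ in this letter as well, apart from that control library.

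In that library the members stood apart from WT_VEH_DEN in the chosen direction. Its mean shift over the 93 members was 0.65, and that of the 4 WT_VEH_DEN libraries of number 28 was 0.03 to 0.13, a difference of 0.57 within the number against 0.73 for the whole group. Replicate 4 and the WT_VEH_DEN libraries took part in the choice of the 93, so these values are in part set by the rule. When the rule was applied without replicate 4 it found 90 rows. In 86 of these 90 rows replicate 4 differed from the mean of the 4 WT_VEH_DEN libraries in the chosen direction, in 47 by at least 0.5, and in 67 it lay beyond all 4 of them. The median difference was 0.52. With each of the other 9 NVS-HD1 libraries left out and read in the same way, 90.6% to 97.8% of rows went in the chosen direction, where replicate 4 had 95.6%, and the median differences were 0.55 to 0.72. Replicate 4 thus had the lowest median of the 10, and the WT_VEH_DEN libraries were used in every choice. The same counts were not made over all rows tested, so they have no background beside them. They describe a single library and carry no test.

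**Figure D5:**
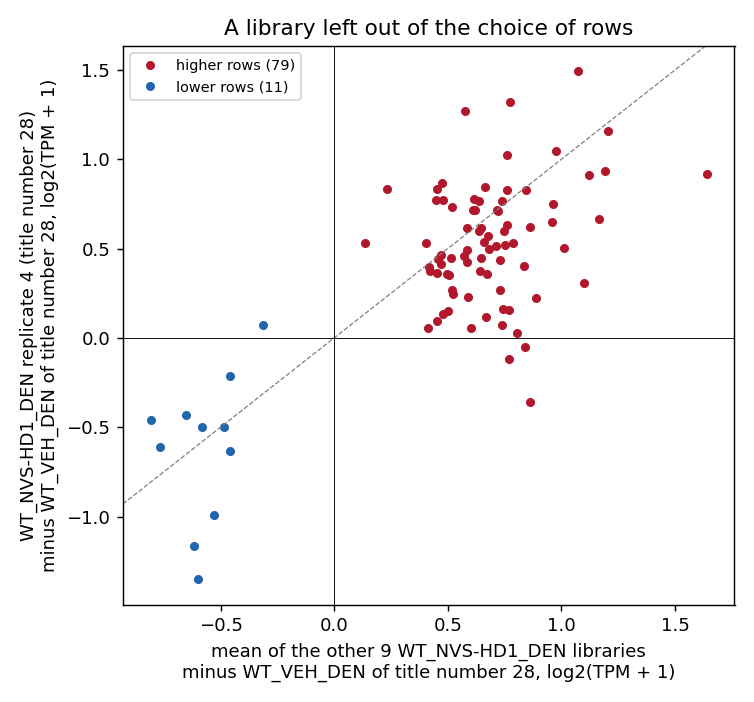
For the 90 rows found without WT_NVS-HD1_DEN replicate 4, its difference from the 4 WT_VEH_DEN libraries of the same title number (y axis) is set against that of the other 9 NVS-HD1 libraries (x axis), in log2(TPM + 1), with a dashed line where both are equal. In 86 of 90 rows replicate 4 lies on the same side of 0 as the direction chosen without it, and many higher rows lie below the dashed line.

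Single rows kept different amounts of their difference within number 28. Row 5623 had 343 TPM in replicate 4 against a mean of 127 TPM in the 4 WT_VEH_DEN libraries, 2.71 times, where the whole groups gave 2.21 times. Row 5662 gave 2.06 times within the number and 2.08 times over the groups, and row 1433 gave 6.75 and 8.99 times. Row 5166 had 518 TPM in replicate 4 against 179 to 387 TPM in WT_VEH_DEN of number 28 and 84.3 to 171 TPM in WT_VEH_DEN of number 29, which leaves 1.82 times within the number in place of 4.06 times. Row 7061 gave 1.24 times, and row 2983 turned around, with 1.02 TPM in replicate 4 against a mean of 1.70 TPM. Among the lower rows, the WT_VEH_DEN mean of number 28 was 1.40 times replicate 4 in row 5007 and 1.54 times in row 19128, against 1.83 and 1.70 times over the groups.

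In WT_VEH_DEN itself the mean shift of the members was 0.03 to 0.13 in the 4 libraries of number 28 and -0.15 to -0.05 in the 3 of number 29. These ranges do not overlap. The distance from numbers 28 and 29 to the numbers of most intervention libraries cannot be had from them. With the title number as a term of the fit, the median signed difference over the 93 members was 0.56 with NVS-HD1 and 0.60 in the knockout, where it was 0.68 and 0.68 without the term. The direction was kept in 89 members for NVS-HD1 and in 84 for the knockout. Applied to that fit, however, the rule found 837 rows, 143 higher and 694 lower, so 17.1% were higher in place of 84.9%, and 41 of them were among the 93. The predominance of higher rows thus turned around with the term. The medians over all 13108 rows also moved down, from 0.03 to -0.13 with NVS-HD1 and from -0.03 to -0.18 in the knockout. Why the counts turned was not tested. With the term, row 5166 stood at 1.12 and 1.42, row 2983 was reversed for both interventions, at -0.18 and -0.21, and row 7061 for the knockout, at -0.30. That term, fitted to the values as deposited, rests on replicate 4 alone to part number from intervention. In replicate 4 the median difference from the WT_VEH_DEN mean over all rows tested was -0.13, the lowest of the NVS-HD1 libraries. NVS-HD1 and the knockout share numbers 26 and 27: the median of NVS-HD1 minus knockout over members, signed so that above 0 means further with NVS-HD1, was 0.07 within number 26 (2 libraries of each) and -0.01 within number 27 (7 and 2 libraries).

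That denervation left these rows near their control level depended in part on how libraries were scaled. As deposited, the median difference between denervated and control muscle was 0.17 over all rows tested and -0.06 over the members, of which 59 were below 0. Median-of-ratios scaling brought the median over all rows to 0.01 and that of the members to -0.21, and 36 members were then at least 0.25 lower in denervated than in control muscle and 0 at least 0.25 higher. On that scale the higher rows averaged 0.19 ± 0.050 above WT_VEH_DEN in control muscle (SD, n = 8), with all 8 control libraries between 0.15 and 0.30, and 0.73 ± 0.081 with NVS-HD1 (SD, n = 10) and 0.78 ± 0.15 in the knockout (SD, n = 9). On average over the higher rows, both interventions thus stayed above control as well as above denervated muscle. Of the 93 members, the 36 named above no longer lay within the bound for denervation, and the others still did.

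Membership under 4 scalings (as deposited, median of ratios, quantile, and TPM rescaled without the 20 most abundant rows) was shared by 29 rows, 27 higher and 2 lower. These include rows 12478, 1433, 5623, 11242, 10217 and 10690 among the higher and rows 16808 and 654 among the lower rows. Row 5166 was a member under 2 of the 4 scalings, and rows 5662, 5007 and 19128 only as deposited. In row 5662 the difference between denervated and control muscle went from -0.23 to -0.41 after median-of-ratios scaling, and in rows 5007 and 19128 from -0.10 and -0.09 to -0.29 and -0.28. The differences from WT_VEH_DEN kept their direction in 93 of 93 members under each of these scalings, for both interventions. Members were chosen for differences of at least 0.5, so a kept direction says little. A difference of at least 0.5 under both was kept in 90 members with median-of-ratios scaling and in 70 with quantile normalization. Without the 20 most abundant rows it was kept in 84.

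Variation shared within groups was also measured. The mean correlation between pairs of rows across the 34 libraries, after each group mean was taken out, was 0.10 among the higher rows, 0.23 among the lower rows and 0.0047 between them, where all rows tested gave 0.14. After median-of-ratios scaling the values were 0.10, 0.08 and -0.08, against 0.0047 over all rows. Once a common factor per library was removed, the value of the lower rows thus fell, as did that over all rows. The value of the higher rows stayed at 0.10. As deposited, the higher rows lay below the value over all rows and the lower rows above it. After scaling, the rows of either direction lay above it. These are descriptions across rows of the same libraries.

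The members were also looked up by their place in the table, whose order has no known meaning for the values. Of the 93 members, 11 had another member within 5 rows, which is 11.8%, and 4.31% of the other rows tested had a member that near. The neighbours were rows 5164 and 5166, 5188 and 5192, 10304 and 10309, 10689 and 10690, and 16808, 16811 and 16813. They did not always share a direction: row 16811 was higher under both interventions, with log2 differences of 0.79 and 0.70, and rows 16808 and 16813 on either side of it were lower.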

How the data were processed

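The authors deposited 1 table of TPM with 23737 rows for 34 libraries of polyadenylated RNA. The submitters' processing notes name the aligner STAR (2.4.5a) and the genome build mm10. How reads were counted, against which annotation and with what filters is not given in the sources used here. Since depth cannot be had from TPM, no counting intervals are given. 0 columns could not be matched to a sample.

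Groups were taken from library titles, with replicates numbered in accession order and never paired. One limma fit (limma 3.58.1, R 4.3.3) with an empirical Bayes trend on log2(TPM + 1) held all 4 groups and the 13108 rows that reached 1 TPM in 7 or more libraries. Tests were two-sided, with Benjamini-Hochberg adjustment over all rows at 0.05. Summaries used Python 3.11.15.

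Members and lists were chosen with earlier results of these data known. Rows named by rule were the 8 higher and 8 lower members with the largest smaller difference, the 3 nearest the threshold on either side, the most abundant in each direction and any called between the interventions. Rows 6791, 16453, 10689, 10217, 18558, 10690, 3177, 18174, 5164, 5188, 5192, 10304, 10309 and 16811 were chosen after their values were seen. Alternatives covered scaling, pseudocount, filter, group medians, libraries left out and the title number. Leaving each NVS-HD1 library out of the rule and reading it against WT_VEH_DEN of number 28 was chosen after seeing the data.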

Additional observations from a re-analysis of the deposited data

Results flagged for a closer look

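Checked were 92 sets of values, 12 of mean shifts per group and 80 of 20 named rows by group. In 8 of them a library lay far from the others of its group, by its gap to the next value relative to the range. A rate of 1 in 20 would give 4.6. The sets share libraries and are not independent, so that number is only a guide. The mean shift of the lower rows was 0.58 in WT_VEH_CON replicate 3 against -0.08 to 0.10 in the other 7 libraries. The same library had 11.2 TPM in row 11661 against 22.0 to 28.8 TPM. Row 2983 had 20.5 TPM in WT_VEH_CON replicate 4 against 0 to 1.55 TPM. Row 5662 had 28.5 TPM in WT_VEH_DEN replicate 5 against 14.7 to 19.8 TPM, and row 8147 had 2.79 TPM in WT_VEH_DEN replicate 3 against 1.16 to 1.85 TPM. Row 16813 had 21.0 TPM in WT_NVS-HD1_DEN replicate 1 against 9.69 to 15.6 TPM, and 26.2 TPM in iRKO_VEH_DEN replicate 2 against 7.09 to 15.2 TPM. Row 9172 had 5.11 TPM in WT_NVS-HD1_DEN replicate 9 against 1.45 to 3.11 TPM.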

How the results depend on the processing

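The rule found 84 rows with median-of-ratios scaling, 79 with quantile normalization and 138 without the 20 most abundant rows, of which 54, 38 and 47 were among the 93. It found 147 with a pseudocount of 0.1, 42 with one of 5, 60 where 5 TPM had to be reached in 7 libraries, and 837 with a term for the title number (41 of the 93). Rows were higher in 84.9% of members, in 95.7% without the 20 most abundant rows and in 17.1% with the title-number term. Leaving out 1 library gave 82 to 105 rows, of which 68 to 93 were among the 93. Between NVS-HD1 and the knockout 0 members were called under the alternatives run (0 to 0 leaving out 1 library), which shows no stability, since members were chosen for agreement and 10 of 13108 rows were called at all.

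The median signed difference over members, 0.68 for NVS-HD1 and 0.68 for the knockout, was 0.84 and 0.87 with a pseudocount of 0.1, and 0.44 and 0.46 with one of 5. For NVS-HD1 it was 0.77 without the 20 most abundant rows and 0.56 with the title-number term, and the mean shift was 0.57 within number 28. The libraries of number 28 took part in the choice of members, so that value is in part set by the rule. Leaving out 1 library gave 0.65 to 0.71 for each intervention. Reversed were row 2983 (-0.18 and -0.21) and row 7061 in the knockout (-0.30) with the title-number term, and row 11633 in the knockout without replicates 3, 7 and 8 (0.066), without these and 2 further libraries (0.066) and with group medians (0.051). The causes were not tested beyond the values given.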
